A study of Mus musculus with 4 samples.

Results

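The genes described here are 8 members of the pathway that runs from the endothelial receptor TIE2 to the FOXO transcription factors: *Irs2*, *Pik3ca*, *Pik3r1*, *Akt1*, *Foxo1*, *Foxo3*, *Foxo4* and *Esm1*. They were taken by symbol as 8 of the 32285 genes listed in each count matrix, and each was found in all 4 libraries. Hearts of mouse embryos at E10.5 were dissected with the entire cardiogenic region, dissociated to single cells and sequenced on a droplet platform that counts each captured RNA molecule by its unique molecular identifier (UMI). Libraries 5 and 7 came from control embryos (Tie2flfl, that is with floxed *Tek*, the gene of TIE2, and no Cre), and libraries 6 and 8 from *Tie2-cko* embryos (Nfatcre-Tie2flfl), so both groups carry the floxed alleles. Cre came from the *Nfatc1* locus, which drives it in the endocardium, and the study used a mixed 129 and C57/BL6 background, embryos of both sexes, and littermates as controls. By the methods 2 hearts per genotype were used, littermates of both genotypes were matched by somites and their libraries shared a lane, but which libraries were matched is not stated. P-values reflect the spread between these hearts and their libraries only.

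TIE2 is a receptor tyrosine kinase of endothelial cells that is activated by angiopoietin 1. It recruits phosphatidylinositol kinase of class I (PI3K), whose lipid product brings the kinase AKT to the membrane. AKT phosphorylates the FOXO factors, and phosphorylated FOXO is held outside the nucleus by 14-3-3 proteins. When AKT is inactive, FOXO enters the nucleus and changes the transcription of its target genes, among them *Irs2*, and in blood vessels *Angpt2* and *Esm1*. Each of these regulatory steps acts on proteins, and transcript counts report neither phosphorylation nor location.

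The libraries held 169361996 to 259775540 UMIs, and 5684 to 10097 cells per library were kept, with a median of 14878 to 25875 UMIs per kept cell. Library 6 was the deepest and had the fewest cells. Cardiac types made up 47.3% and 37.4% of the cells of libraries 5 and 6 against 75.4% and 78.0% of libraries 7 and 8, with more low-UMI and unnamed clusters in the former. Between 29 and 62 deposited barcodes were shared by each pair of libraries. Endocardial cells (EdCs) were divided by markers into chamber EdCs (378, 139, 594 and 458 cells in libraries 5, 6, 7 and 8) and cushion EdCs (260, 128, 433 and 446 cells). Further types were a small vascular endothelial-like cluster with low *Nrg1* (79, 65, 40 and 57 cells), cardiomyocytes (CMs), mesenchymal cells (MCs), epicardial cells, red blood cells, a macrophage-like cluster, neural cells and epithelial cells. A level is the mean over the cells of a type of a gene's UMIs per 10000 UMIs of the cell, and is compared between cell types and libraries but not between genes.

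*Tek*, the targeted gene, was low in EdCs of both *Tie2-cko* libraries. In chamber EdCs the controls (libraries 5 and 7) had levels of 0.888 and 1.01, and *Tie2-cko* (libraries 6 and 8) of 0.136 and 0.148. In cushion EdCs it was 0.882 and 1.68 against 0.355 and 0.300. The groups did not overlap in either type. The log2 fold change from edgeR's quasi-likelihood test was -2.49 ± 0.17 (SE, n = 2 against 2 libraries) in chamber EdCs with an adjusted p of 0.00772. In cushion EdCs it was -2.01 ± 0.27 with an adjusted p of 0.122, which misses the threshold of 0.05. The cushion call depended on the setting. At a similar fold change edgeR gave an adjusted p of 0.0939 with other size factors, 0.101 with a stricter cell filter, 0.159 without doublet removal and 0.0958 at resolution 1.2. At resolution 0.4 the fold change was -1.67 and did not pass. The call passed at a similar fold change with an adjusted p of 1.24e-09 from DESeq2. From edgeR it was 4.85e-28 without the filter on low counts and 1.82e-66 with libraries 5 and 6 and libraries 7 and 8 as blocks. It also passed without control library 5 (-2.38, adjusted p = 9.59e-25 from edgeR) and without control library 7 (-1.50, adjusted p = 1.83e-05), but not without library 6 or 8 (0.137 and 0.0673). In vascular endothelial-like cells the levels overlapped, at 0.531 and 0.704 in the controls and 0.712 and 0.402 in *Tie2-cko*. In epicardial cells they were at 0.230 and 0.267 against 0.207 and 0.216, a log2 fold change of -0.14 ± 0.15 that did not pass. In MCs, whose origin was not tested, the controls were at 0.153 and 0.281 and *Tie2-cko* at 0.0404 and 0.0334, without overlap (-2.38 ± 0.32, adjusted p = 0.391 from edgeR and 2.02e-08 from DESeq2). In CMs, where *Tek* was near 0, levels were 0.00769 and 0.00792 against 0.00692 and 0.00212 (-1.48 ± 0.35, adjusted p = 1.00 from edgeR). The counts do not tell transcripts with the floxed part from those without it.

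*Foxo1* was the member with the clearest endocardial pattern. FOXO1 is the main FOXO factor of endothelium and restrains its growth. The gene (ENSMUSG00000044167; GRCm38 chromosome 3, 52268336 to 52353221, forward strand) overlaps *Gm38034* on the same strand and *Gm20402* on the other. Its level in cushion EdCs was 0.718, 0.666, 0.646 and 0.670 in libraries 5, 6, 7 and 8. In chamber EdCs it was 0.466, 0.378, 0.367 and 0.395. In vascular endothelial-like cells it was 0.247, 0.285, 0.138 and 0.149. Cushion EdCs were thus above chamber EdCs, and chamber EdCs above vascular endothelial-like cells, without overlap of the libraries. Within each of the 4 libraries the level of cushion EdCs was 1.54 to 1.76 times that of chamber EdCs.

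Below the endothelial types, *Foxo1* fell to a mean of 0.150 in MCs, and to 0.0545 in epicardial cells and 0.0391 in CMs. Chamber EdCs exceeded CMs 9.00 to 11.8-fold within the libraries. Among CM clusters the level ran from 0.0246 to 0.0440 and among MC clusters from 0.0986 to 0.170. In the order from vascular endothelial-like cells through neural cells (0.156 over the 2 libraries with 20 cells or more), MCs and epithelial cells (0.0986) to epicardial cells, all neighbours overlapped. Epicardial cells lay above CMs without overlap, and red blood cells were lowest at 0.0105.

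The share of cells with a *Foxo1* UMI gave the same order of types after each cell was thinned to 5500 UMIs, which evens out depth. The thinned share was 22.1%, 17.2%, 18.9% and 17.8% of chamber EdCs in libraries 5, 6, 7 and 8, and 29.2%, 25.4%, 28.6% and 28.3% of cushion EdCs. In CMs it was 1.72% to 2.26%. The unthinned shares were 50%, 59.7%, 37.9% and 35.8% of chamber EdCs at median depths of 14758, 27717, 12518.5 and 11036 UMIs, and 8.73% to 18.3% of CMs at 20998.5 to 47136.5 UMIs. Thinning left out 11 to 43 chamber EdCs per library.

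*Foxo3* and *Foxo4*, the other FOXO genes expressed in many tissues, showed no endocardial preference. *Foxo3* (ENSMUSG00000048756, chromosome 10 of GRCm38, 42181841 to 42276755, reverse strand) was at 0.0231, 0.0462, 0.0539 and 0.0379 in chamber EdCs of libraries 5, 6, 7 and 8. Chamber and cushion EdCs were the last types in its order, at means of 0.0403 and 0.0440, with CMs at 0.0584 and the macrophage-like cluster highest at 0.112. All neighbours in this order overlapped. In CMs *Foxo3* was higher than in chamber EdCs in 4 of 4 libraries.

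*Foxo4* (ENSMUSG00000042903, chromosome X of GRCm38, 101254528 to 101260873, forward strand) was at 0.0314, 0.0198, 0.0153 and 0.0175 in chamber EdCs of libraries 5, 6, 7 and 8, from only 17, 17, 18 and 8 UMIs. Its mean of 0.0210 there was below that of cushion EdCs (0.0341), MCs (0.0414) and CMs (0.0442), and below CMs in each of the 4 libraries. It was highest in neural (0.0706) and epithelial cells (0.0697).

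**Figure D1:**
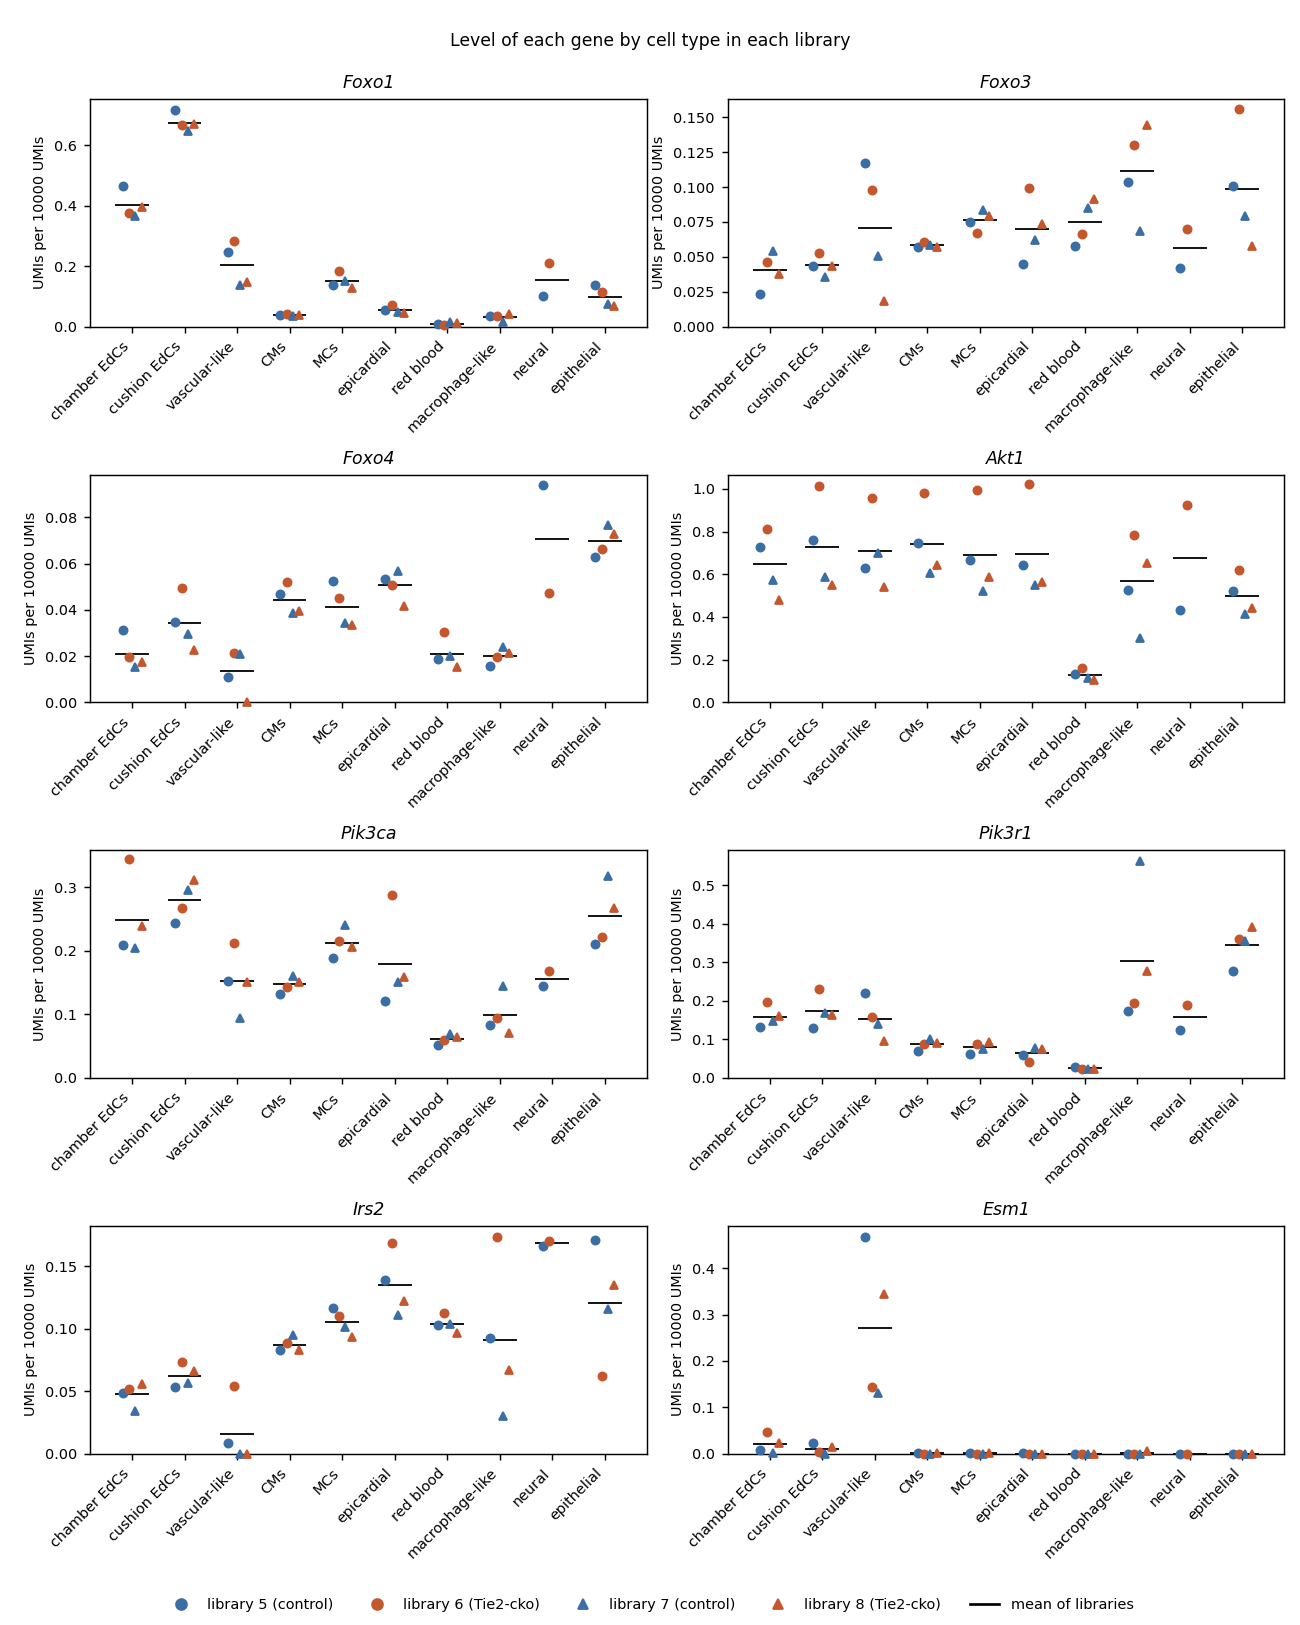
Level of the 8 genes (UMIs per 10000 UMIs, mean over cells, linear axes that differ between panels) in 10 cell types, with 1 point per library of at least 20 cells and a bar at the mean of the libraries. Foxo1 is highest in cushion EdCs (mean 0.675) and chamber EdCs (0.401), Esm1 in vascular endothelial-like cells (0.272), and Akt1 is highest in library 6 in each of the 6 tested types.

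Upstream of AKT, *Irs2* was lower in endothelial types than in the other cardiac types. It encodes an adaptor that links insulin and IGF receptors to PI3K, and is itself a classic FOXO target. The gene (ENSMUSG00000038894; GRCm38 chromosome 8, 10984681 to 11008458, reverse strand) overlaps *9530052E02Rik* on the other strand. The level was 0.0484, 0.0515, 0.0341 and 0.0559 in chamber EdCs of libraries 5, 6, 7 and 8, with a mean of 0.0475. Cushion EdCs had a mean of 0.0622, CMs of 0.0872, MCs of 0.105 and epicardial cells of 0.135. CMs exceeded chamber EdCs in 4 of 4 libraries, 1.49 to 2.79-fold, and the ranges of CMs and cushion EdCs did not overlap. Vascular endothelial-like cells held only 4 *Irs2* UMIs in all, 1 in library 5 and 3 in library 6.

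*Pik3ca* and *Pik3r1*, which encode the catalytic subunit p110α and the regulatory subunit p85α of PI3K, were higher in EdCs than in CMs. *Pik3ca* (ENSMUSG00000027665; GRCm38 chromosome 3, 32397671 to 32468486, forward strand) overlaps *Gm37123* on the same strand. Its level in chamber EdCs was 0.208, 0.344, 0.205 and 0.239 in libraries 5, 6, 7 and 8, with both *Tie2-cko* libraries above both controls. The share of cells with a *Pik3ca* UMI, thinned to 5500 UMIs, lay the other way, at 12.6% and 11.8% in the controls and 10.2% and 11.5% in *Tie2-cko*, so no order of the genotypes was read from either. Its mean level was 0.249 in chamber EdCs, 0.280 in cushion EdCs, 0.213 in MCs and 0.147 in CMs. Chamber EdCs exceeded CMs 1.27 to 2.40-fold within the 4 libraries.

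*Pik3r1* (ENSMUSG00000041417; GRCm38 chromosome 13, 101680563 to 101768217, reverse strand, overlapping *Gm36638*) was at 0.132, 0.197, 0.147 and 0.160 in chamber EdCs of libraries 5, 6, 7 and 8. Here, too, both *Tie2-cko* libraries lay above both controls, library 8 by little. The mean of 0.159 in chamber EdCs was close to that of cushion EdCs (0.173) and vascular endothelial-like cells (0.153), whose libraries overlapped, while CMs were at 0.0872, MCs at 0.0797 and epicardial cells at 0.0641. Chamber EdCs exceeded CMs 1.47 to 2.24-fold. The highest means were those of epithelial cells (0.346) and the macrophage-like cluster (0.303).

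*Akt1*, which encodes the AKT kinase found in most tissues, varied little between cardiac types and much between libraries. The gene (ENSMUSG00000001729; GRCm38 chromosome 12, 112653821 to 112674884, reverse strand) overlaps *Mir6939* on the same strand. Its mean lay between 0.648 in chamber EdCs and 0.744 in CMs over the 6 cardiac and vascular types, and each neighbour in the order overlapped the next down to epithelial cells at 0.498. Red blood cells stood below at 0.127. In chamber EdCs the level was 0.727, 0.810, 0.573 and 0.482 in libraries 5, 6, 7 and 8, and in CMs 0.746, 0.981, 0.606 and 0.642. Library 6 was highest in 6 of 6 tested types, and library 7 or 8 lowest in each. In chamber EdCs libraries 5 and 6, which are of different genotype, were both above libraries 7 and 8.

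*Akt1* was also the member whose window before the gene start held a FOXO-type motif among those searched for. FOXO factors bind forkhead motifs with the core GTAAACA, and TTGTTTAC is the form that the study gives as the insulin response element. Other forms of FOXO site were not searched for. RefSeq windows (250 bases before to 50 after a gene start, GRCm38.p6) were matched for 7 of the 8 genes in 9 windows. TTGTTTAC, searched on both strands, was present in 1.23% of all 32851 windows and in 1 of the 9. GTAAACA was present in 3.65% of all windows and overlaps TTGTTTAC on the reverse strand, so that both hits in *Akt1* are the same site. The *Akt1* stretch lies on the reverse strand at chr12:112674999-112675086, with the motif in capitals at bases -162 to -155 from the gene start, and is shown because FOXO factors are the pathway's output. The *Esm1* stretch ends at the gene start (chr13:113209539-113209658, forward strand) and is shown because *Esm1* had the largest genotype difference among the members. It held neither of the motifs searched for, and whether it holds another form of FOXO site was not tested.
Akt1: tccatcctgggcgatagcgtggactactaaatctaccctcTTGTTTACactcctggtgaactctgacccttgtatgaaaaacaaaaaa
Esm1: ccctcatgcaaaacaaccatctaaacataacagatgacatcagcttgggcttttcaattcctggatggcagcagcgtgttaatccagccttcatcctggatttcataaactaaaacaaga

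*Esm1* encodes endocan, a secreted proteoglycan of angiogenic endothelial tip cells, and was highest in vascular endothelial-like cells. The gene (ENSMUSG00000042379; GRCm38 chromosome 13, 113209659 to 113218098, forward strand) overlaps *Gzmk* on the other strand. In vascular endothelial-like cells its level was 0.469, 0.143, 0.13 and 0.345 in libraries 5, 6, 7 and 8, from 63, 30, 9 and 31 UMIs. This was above the level of every other type in each library. CMs, MCs and epicardial cells held 10, 2 and 1 UMIs in all, and red blood cells, neural cells and epithelial cells none.

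In chamber EdCs the *Esm1* level of the controls was 0.00795 and 0.000975, from 5 and 1 UMIs, and that of *Tie2-cko* 0.0466 and 0.0230, from 30 and 17 UMIs. Both *Tie2-cko* libraries were above both controls. The UMIs stood in 4 of 378 and 1 of 594 control cells, 1.06% (exact binomial 95% interval 0.289% to 2.69%) and 0.168% (0.00426% to 0.934%). In *Tie2-cko* they stood in 11 of 139 and 11 of 458 cells, 7.91% (4.02% to 13.7%) and 2.40% (1.2% to 4.26%). These intervals cover counting error only. In CMs, which should lack *Esm1*, the shares were 0.225%, 0%, 0% and 0.0672% in libraries 5, 6, 7 and 8 at the CM depths given above, where the libraries at 0 held 0 of 1396 and 0 of 3620 cells with a UMI. A count of 3 would be 0.215% and 0.0829% of these cells, and the exact binomial upper limits are 0.264% and 0.102%. The share in control library 7 was within counting error of that background. Thinned to 5500 UMIs, the chamber EdC shares were 0.560% and 0% in the controls and 2.34% and 1.17% in *Tie2-cko*. The exact permutation test of these shares gave p = 0.33, two-sided, the smallest that 2 against 2 libraries allow.

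No chamber EdC held more than 6 *Esm1* UMIs. *Cldn5*, which marks the vascular endothelial-like cluster, was held by 11.6% and 11.1% of chamber EdCs in the controls and 13.7% and 7.86% in *Tie2-cko*, and by 75.0% to 94.9% of vascular endothelial-like cells. Of the cells with *Esm1*, 2 of 4 and 1 of 1 in the controls and 4 of 11 and 4 of 11 in *Tie2-cko* also held *Cldn5*. Without all *Cldn5*-holding cells, a setting chosen after the data had been seen, 2 and 0 *Esm1* UMIs remained in the controls and 19 and 8 in *Tie2-cko*. *Esm1* then fell below the filter on low counts, so its genotype difference was not tested in that setting. Cushion EdCs held 3 and 0 *Esm1* UMIs in the controls and 1 and 13 in *Tie2-cko*, in 4 cells altogether, and the gene was too low to be tested there.

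**Figure D2:**
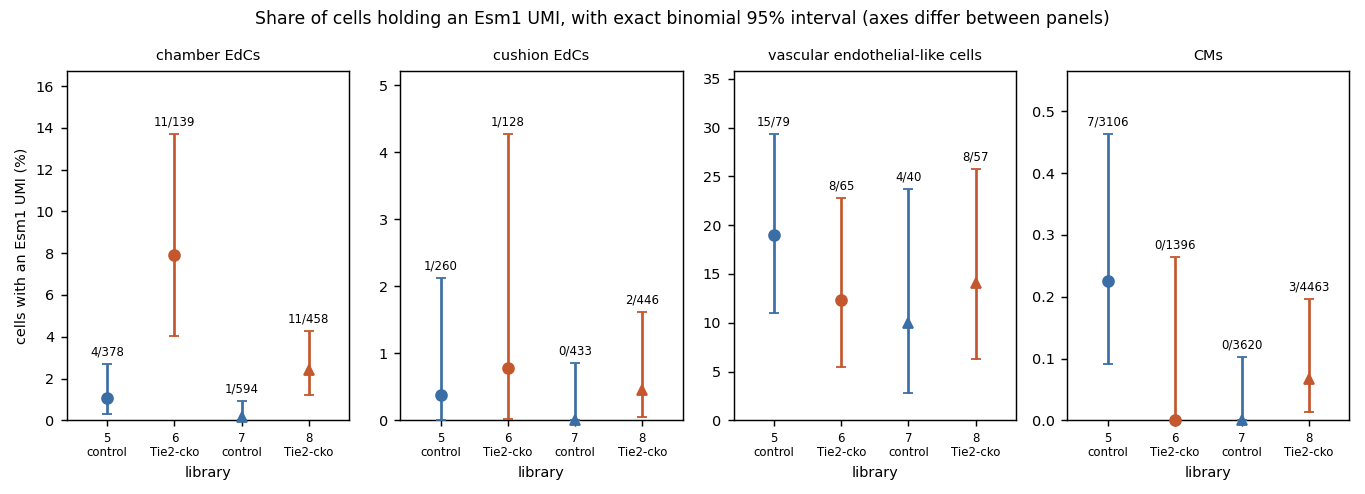
Share of cells with an Esm1 UMI in 4 cell types by library (percent, linear axes that differ between panels), with exact binomial 95% intervals and the number of cells above each bar. In chamber EdCs the Tie2-cko libraries are at 7.91% and 2.40% and the controls at 1.06% and 0.168%, while the libraries of both genotypes overlap in vascular endothelial-like cells.

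The comparison of genotypes was made for each cell type on UMIs summed per library, with p-values adjusted over all genes tested in that type. In bulk sums of a type, fewer expressing cells and less RNA per cell cannot be told apart. In chamber EdCs 0 of 8 members passed an adjusted p of 0.05, against 0.00867% of all 11530 genes, which is *Tek* alone. *Esm1* came nearest, with a log2 fold change of 3.24 ± 0.69 (SE; 95% interval 1.63 to 4.85) and an adjusted p of 0.311 from edgeR, and was the only member with an unadjusted p under 0.05. The size of the fold change, but not its sign, varied with the library left out. It was 2.36 (log2) without control library 7, 2.71 without library 6, 3.63 without library 8 and 4.86 without control library 5. Its call depended on the setting. The adjusted p was 6.67e-06 without the filter on low counts and 0.000919 with libraries 5 and 6 and libraries 7 and 8 as blocks, both from edgeR, against 0.126 with DESeq2. Over the alternatives it ranged from 6.67e-06 to 0.351. Leaving out control library 5 gave 0.000466 and leaving out *Tie2-cko* library 8 gave 0.00237, while leaving out library 6 or 7 gave 0.205 and 0.113.

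Of the other members in chamber EdCs, *Foxo1* had a log2 fold change of -0.11 (95% interval -0.44 to 0.22) and *Akt1* of -0.01 (-0.54 to 0.52). *Pik3ca* was at 0.23 (-0.11 to 0.58), *Pik3r1* at 0.21 (-0.21 to 0.63) and *Irs2* at 0.45 (-0.23 to 1.12). *Foxo3* was at 0.34 (-0.58 to 1.26) and *Foxo4* at -0.15 (-1.25 to 0.95), the widest intervals after that of *Esm1*. Adjusted p-values of these 7 genes from edgeR lay between 0.774 and 0.996. In summed UMIs the *Tie2-cko* libraries were both above both controls for 4 of 8 members (*Pik3ca*, *Pik3r1*, *Irs2* and *Esm1*), against 25.9% of all genes tested. They were both below for 0, against 13.2% of all genes. For *Pik3ca* the thinned share of cells lay the other way.

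In cushion EdCs 0 of 7 members tested passed, against 0% of all 11361 genes. At an unadjusted p under 0.05 edgeR gave 276 genes, none of them a member, and DESeq2 called 8 genes, none of them a member. *Foxo1* was at -0.16 (-0.45 to 0.14), *Pik3r1* at 0.37 (-0.11 to 0.85), *Irs2* at 0.31 (-0.30 to 0.92), *Foxo4* at 0.33 (-0.57 to 1.23), *Akt1* at 0.18 (-0.33 to 0.68), *Foxo3* at 0.04 (-0.73 to 0.81) and *Pik3ca* at 0.01 (-0.40 to 0.43). Summed UMIs of *Pik3r1* and *Irs2* were higher in both *Tie2-cko* libraries, 2 of 7 members against 20% of all genes. Those of *Foxo1* were lower in both, 1 of 7 against 9.8% of all genes. As means over cells the *Foxo1* libraries overlapped.

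In vascular endothelial-like cells 0 of 5 members tested passed, against 0.0357% of all genes. *Esm1* was at -0.47 (-1.69 to 0.76) there, *Pik3r1* at -0.59 (-1.43 to 0.25), *Pik3ca* at 0.32 ± 0.39, *Akt1* at 0.10 (-0.50 to 0.71) and *Foxo1* at -0.05 (-0.94 to 0.85). In CMs and MCs 0 of 7 members passed, as did 0% of all 15620 and 12704 genes; at an unadjusted p under 0.05 edgeR gave 69 and 139 genes and DESeq2 called 2 and 11, none of them a member. Members lay between -0.14 (*Irs2*) and 0.18 (*Akt1*) in CMs and between -0.23 (*Foxo4*) and 0.32 (*Pik3r1*) in MCs. In epicardial cells 0 of 7 passed, against 0.0335% of all genes, with values between -0.16 (*Foxo4*) and 0.32 (*Foxo3*).

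**Figure D3:**
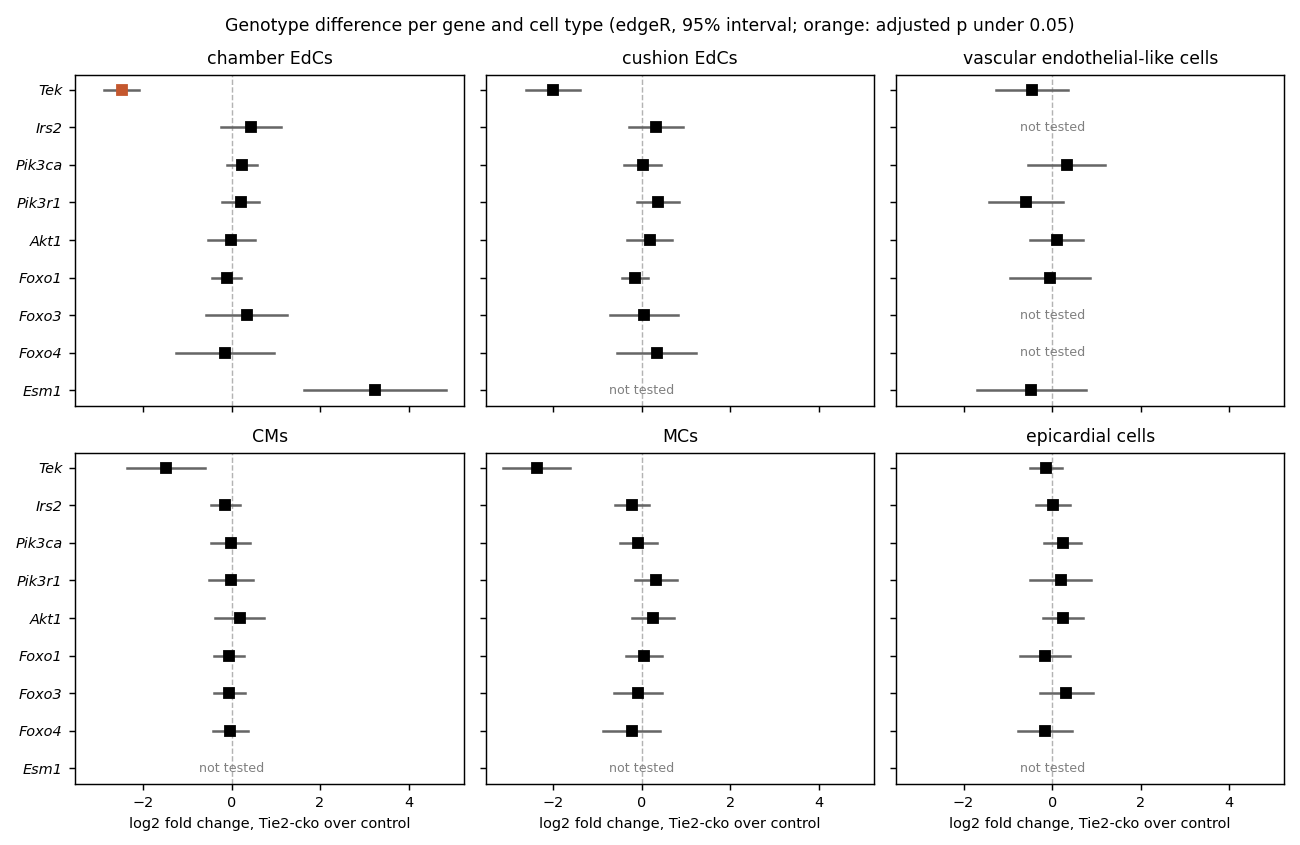
Log2 fold change of Tie2-cko over control from edgeR for Tek and the 8 members in 6 cell types, with 95% intervals (2 against 2 libraries). Tek in chamber EdCs, at -2.49, is the only value past an adjusted p of 0.05, and Esm1 in chamber EdCs, at 3.24, is the only member whose interval lies away from 0.

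The genotype effect was then compared between cell types in the same libraries. Between chamber and cushion EdCs, 0 of 8 members differed, against 0.691% of all genes. The difference was 0.04 (-0.23 to 0.31) for *Foxo1*, -0.20 (-0.45 to 0.04) for *Akt1* and 1.14 (-2.11 to 4.39) for *Esm1*. Between chamber EdCs and CMs, 0 of 8 differed, against 1.43% of all genes. *Esm1* was at 4.18 (1.18 to 7.17; adjusted p = 0.187 from edgeR) and *Irs2* at 0.59 (0.05 to 1.13; adjusted p = 0.347), the members with intervals away from 0. The *Esm1* value depends on the prior count because CMs held so few of its UMIs.

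Red blood cell RNA moved with genotype in the endocardial types and beyond them. All genes that passed with edgeR in vascular endothelial-like cells (*Hbb-y*, *Hbb-bh1* and *Hba-x*) were globins, lower in *Tie2-cko*. So were all that passed in epicardial cells (*Hbb-y*, *Hba-x*, *Hbb-bt* and *Hbb-bh1*). DESeq2 also called globins in MCs and *Hbb-bt* in CMs. The 6 red blood cell markers, globins among them, summed to 94.1 and 30.2 UMIs per 10000 in chamber EdCs of the controls and to 10.8 and 9.66 in *Tie2-cko*, and to 70.4 and 35.3 against 12.4 and 10.1 in cushion EdCs, with no marker at 0. In vascular endothelial-like cells the sums were 46.2 and 32.6, with 1 and 2 markers at 0, against 10.2 and 9.05, with none at 0. In chamber EdCs the 8 MC markers summed to 0.952 and 1.02 in the controls and 1.35 and 1.46 in *Tie2-cko*, without overlap and with none at 0. The 6 epicardial markers summed to 0.0475 and 0.0873 against 0.244 and 0.0906, also without overlap and with none at 0. The 6 macrophage markers were lower in *Tie2-cko*, at 0.0353 and 0.0345 against 0.0167 and 0.0253, with 1 and 2 markers at 0 against 1 and 3. The 8 CM markers overlapped, at 12.2 and 14.8 against 13.0 and 17.0. The part of these markers in the values above was not tested.

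The remaining genes of the pathway were taken from 12 lists with 85 genes. In chamber EdCs none of them but *Tek* passed the threshold. Among the angiopoietins and TIE receptors 5 of 6 were tested, 1 fell (*Tek*), and *Tie1*, the co-receptor of TIE2, was at -0.02 ± 0.17 (log2, SE). *Angpt1*, the activating ligand, was at 0.35 ± 0.37. The median of the list was 0.30, against 0.01 for all genes. Of the 10 other receptors and adaptors, 9 were tested and 0 passed, with a median of 0.22. In 5 of these 9 both *Tie2-cko* libraries were above both controls, against 25.9% of all genes tested, and in 0 below. *Igf1r*, the IGF receptor, was at 0.256 and 0.285 in the controls and 0.402 and 0.523 in *Tie2-cko*, a log2 fold change of 0.84 ± 0.16 with an adjusted p of 0.299 from edgeR. *Irs1*, a further insulin receptor substrate, was at 1.46 ± 0.47, from 7 and 6 UMIs in the controls and 12 and 17 in *Tie2-cko*.

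Of the 8 PI3K subunit genes 4 were tested and 0 passed, with a median of 0.21 against 0.01. *Pik3r3*, another regulatory subunit, stood apart from *Pik3r1* in sign, at 0.13 and 0.175 in the controls and 0.0890 and 0.102 in *Tie2-cko* (log2 fold change -0.78 ± 0.24, adjusted p = 0.574 from edgeR). All 7 lipid and AKT phosphatase genes were tested and 0 passed, with a median of 0.03. *Inppl1* was at 0.48 ± 0.23 and *Inpp4a* at 0.57 ± 0.36. Of 9 AKT kinase and activating kinase genes 0 passed, with a median of 0.04. *Rictor*, a subunit of the complex that phosphorylates AKT, was at 0.30 ± 0.18, and *Akt2* at 0.02 ± 0.23.

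Of 8 genes of AKT substrates 0 passed, with a median of 0.02, and *Tsc2* and *Gsk3a* were at 0.42 ± 0.24 and 0.27 ± 0.16. Of the 4 FOXO genes 3 were tested, all of them members, and *Foxo6* was too low. Of 7 genes of 14-3-3 proteins, the cytoplasmic binders of phosphorylated FOXO, 6 were tested, 0 passed and the values lay between -0.13 (*Ywhaq*) and 0.17 (*Ywhaz*), the narrowest span of the lists. *Ywhah* was at 0.11 ± 0.13.

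FOXO1 target genes were considered in 4 lists, of which the endothelial lists were taken from the study. It named *Col13a1*, *Gja4*, *Egr1*, *Tcf4*, *Pdgfb* and *Timp3* on these samples, so that for these the direction is no independent evidence. *Esm1*, *Angpt2*, *Vcam1* and *Nos3* were named only from whole hearts of a later stage, from which the study also named *Pdgfb*, *Gja4* and *Col13a1*. Of the 7 endothelial targets listed as raised, 0 passed in chamber EdCs. The median was 0.70, the value of *Tcf4*, against 0.01 for all genes, and the 7 values lay between 0.14 and 3.24. Both *Tie2-cko* libraries were above both controls for 4, against 25.9% of all genes. Besides *Esm1* these were *Pdgfb*, a growth factor that recruits pericytes, *Tcf4* and *Timp3*. These other genes were named on these samples, so neither the median nor the count is independent evidence. *Pdgfb* was at 0.0492 and 0.0407 in the controls and 0.177 and 0.125 in *Tie2-cko*, a log2 fold change of 1.85 ± 0.25 with an adjusted p of 0.244 from edgeR. *Tcf4* was at 0.70 ± 0.13 and *Timp3* at 0.78 ± 0.20. Of the raised targets named only from whole hearts, *Esm1* was at 3.24 ± 0.69, *Angpt2* at 0.30 ± 0.51 and *Vcam1* at 0.14 ± 0.34. In cushion EdCs 5 of the list were tested, with a median of 0.41, and in CMs 6, with a median of -0.11.

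Of the 3 endothelial targets listed as lowered, 0 passed and the median was -0.77, the value of *Col13a1*, which the study named on these samples. *Gja4*, a gap junction gene of arterial endothelium, was at 2.30 and 2.19 in the controls and 1.25 and 1.53 in *Tie2-cko* (-0.83 ± 0.14, adjusted p = 0.278 from edgeR). *Col13a1* was at -0.77 ± 0.18 and *Nos3* at -0.23 ± 0.23. In cushion EdCs *Gja4* was at 0.96 ± 0.21, the opposite sign, and *Col13a1* at -0.70 ± 0.16. The difference of *Gja4* between chamber and cushion EdCs was -1.82 ± 0.16 with an adjusted p of 1.85e-05 from edgeR. DESeq2 called *Gja4* and *Pdgfb* in chamber EdCs, and no other gene of the lists but *Tek*.

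Of 17 genes that active FOXO raises in many tissues, 16 were tested and 0 passed, with a median of 0.17 against 0.01. In 8 of them, *Irs2* included, both *Tie2-cko* libraries were above both controls and in 1, *Bcl2l11* (-0.20 ± 0.18), both were below, against 25.9% and 13.2% of all genes. *Pdk4*, a brake on glucose oxidation, was at 0.00271 and 0.00523 in the controls and 0.0215 and 0.0249 in *Tie2-cko*, from 3 and 6 against 14 and 17 UMIs, a log2 fold change of 2.09 ± 0.48 with an adjusted p of 0.356 from edgeR. *Klf4* was at 0.92 ± 0.28 and *Cdkn1b*, the cell cycle inhibitor p27, at 0.42 ± 0.17. Of 3 genes that active FOXO lowers, 0 passed. *Myc* was at 0.153 and 0.129 in the controls and 0.194 and 0.204 in *Tie2-cko* (0.55 ± 0.17, adjusted p = 0.582 from edgeR), and *Ccnd1* at -0.07 ± 0.13.

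**Figure D4:**
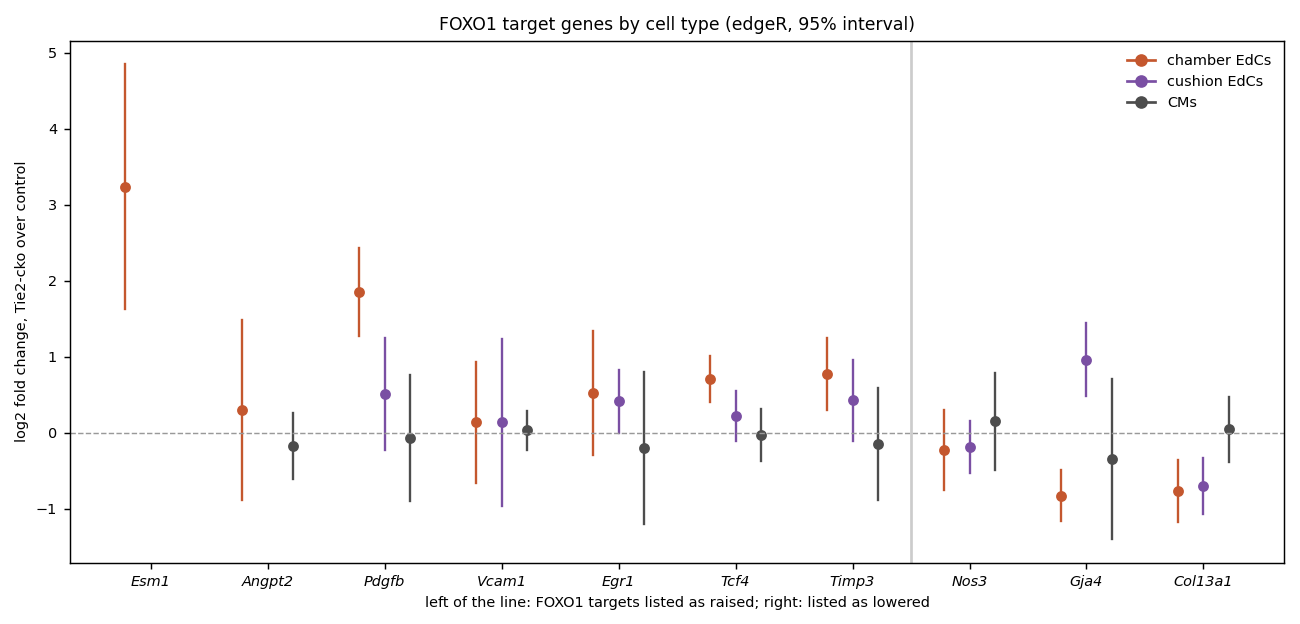
Log2 fold change of Tie2-cko over control from edgeR with 95% intervals for the 10 endothelial FOXO1 target genes in chamber EdCs, cushion EdCs and CMs. In chamber EdCs the 7 genes listed as raised lie between 0.14 and 3.24 and the 3 listed as lowered between -0.83 and -0.23, with none past an adjusted p of 0.05; genes without a point were not tested.

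The genes most like each member were sought across 38 summed profiles of 10 cell types, among 7571 genes with a mean CPM of at least 10. The profiles share libraries and depth, and the correlation of log2(CPM + 1) is given as a description. *Foxo1* was most like *Plk2* (r = 0.95), *Dock6* (0.95) and *Grasp* (0.95). *Esm1* was most like *Kcne3* (0.96), *Oit3* (0.94) and *Fam167b* (0.92). *Pik3ca* was most like *Pik3c2a* (0.96), *Fbxo11* (0.95) and *Paip1* (0.95), *Akt1* like *Spag7* (0.95), *Ppp2r1a* (0.94) and *Tmem115* (0.94), and *Pik3r1* like *Emb* (0.91), *Mia2* (0.89) and *Maml3* (0.87). The low genes had weaker matches, with *Cited2* (0.76), *Ormdl3* (0.73) and *Tprkb* (0.71) for *Irs2*, *Runx1* (0.73), *Fen1* (0.72) and *Wdr55* (0.71) for *Foxo3*, and *2010320M18Rik* (0.80), *Nit1* (0.77) and *Ptpn13* (0.76) for *Foxo4*.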

How the data were processed

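The single-cell libraries at E10.5, 2 control and 2 *Tie2-cko*, were grouped by the genotype in the labels. The methods name 2 hearts per genotype, but which heart gave each library is not stated. The study reported fewer cells per genotype than the deposited barcodes, and whether it used all 4 libraries is not stated. The authors deposited UMI counts per gene and barcode made with Cell Ranger on mm10, without normalization. The matrix header gives version 6.1.2, and the methods name another. No barcode held fewer than 500 UMIs, since cells had been called beforehand. A correction for free RNA or doublets is not given in the sources used here. The 8 genes and all gene lists were chosen with earlier results of these data known.

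Barcodes were kept with at least 500 genes, 1000 UMIs and at most 10% mitochondrial UMIs. Doublets were removed by Scrublet score (scanpy 1.11.5) at 0.8% per 1000 barcodes, 285 to 982 per library. Cells were clustered with Seurat 5.3.0 (2000 variable genes less 24 genes compared in the text, 30 components, 20 neighbours, resolution 0.8). Clusters were named if at least 3 markers and over 0.5 of a type's list reached 0.25 of their highest cluster. Those whose median UMIs fell below 0.33 of the libraries' median stayed unnamed, and conditions on *Nrg1* and *Postn* separated vascular endothelial-like cells and MCs, all set after the clusters had been seen. Names may differ from those of the study. An unnamed cluster with *Gpr182* and *Emcn* among its leading genes (571, 348, 402 and 243 cells in libraries 5, 6, 7 and 8) was left out for low UMIs.

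Counts were summed per library and type for types with 20 cells or more in each library, and tested with edgeR 4.0.16 (filterByExpr, TMM, quasi-likelihood test, Benjamini-Hochberg over all genes tested). Standard errors are the log2 fold change over the square root of F. The genotype effect was compared between types by an interaction term, each library being a block. Other software was R 4.3.3 with DESeq2 1.42.0, and pandas 2.3.3, numpy 2.4.6 and scipy 1.17.1 under Python 3.11.15. Gene positions are from GENCODE M21. The tests were tried on simulated data beforehand.

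Genes are named in the text if they are members or *Tek*, if they belong to a list and passed the threshold in a tested type, if they are among the 2 genes of a list with the largest absolute fold change in chamber EdCs whose genotypes did not overlap in summed UMIs, or if they are among the 3 genes most like a member. *Tie1*, *Akt2*, *Foxo6*, *Ywhaz*, *Tcf4*, *Timp3*, *Angpt2*, *Vcam1*, *Nos3*, *Cdkn1b*, *Bcl2l11*, *Egr1*, *Ccnd1* and *Xist* were added after their values had been seen. Some genes that these rules name are not reported here. Alternatives were DESeq2, other size factors, no filter, each library left out, blocks of libraries, a stricter cell filter, no doublet removal, other resolutions, pooled levels and another thinning depth.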

Additional observations from a re-analysis of the deposited data

Results flagged for a closer look

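No genotype effect of the 8 members differed between cell types past the threshold, but those of 8 other pathway genes did, by edgeR's test of the difference with Benjamini-Hochberg adjustment over all genes. None of these pathway genes passed with edgeR within either cell type compared. The effect on *Gja4* was -0.83 in chamber EdCs and 0.96 in cushion EdCs, a difference of -1.82 ± 0.16 (SE; adjusted p = 1.85e-05 from edgeR). The effect on *Tcf4* was 0.70 in chamber EdCs and 0.22 in cushion EdCs, a difference of 0.47 ± 0.10 (SE; adjusted p = 0.0385 from edgeR). It did not pass without control library 5 or *Tie2-cko* library 6, and ranged from 0.39 to 0.56 over the libraries left out. The effect on *Col13a1* was -0.77 in chamber EdCs and 0.04 in CMs, a difference of -0.82 ± 0.18 (SE; adjusted p = 0.0179 from edgeR). It did not pass without control library 7, and ranged from -1.17 to -0.46 over the libraries left out. The effect on *Egr1* was 0.52 ± 0.35 in chamber EdCs and -0.20 ± 0.40 in CMs, a difference of 0.70 ± 0.12 (SE; adjusted p = 0.00291 from edgeR). The effect on *Igf1r* was 0.84 in chamber EdCs and 0.02 in CMs, a difference of 0.81 ± 0.12 (SE; adjusted p = 0.00113 from edgeR). The effect on *Pdgfb* was 1.85 in chamber EdCs and -0.07 in CMs, a difference of 1.89 ± 0.45 (SE; adjusted p = 0.032 from edgeR). It did not pass without *Tie2-cko* library 6 or control library 7, and ranged from 1.56 to 2.28 over the libraries left out. The effect on *Pdk4* was 2.09 in chamber EdCs and -0.04 in CMs, a difference of 2.18 ± 0.54 (SE; adjusted p = 0.0407 from edgeR). It did not pass without control library 5 or *Tie2-cko* library 6 or control library 7, and ranged from 1.98 to 2.44 over the libraries left out. The effect on *Tcf4* was 0.70 in chamber EdCs and -0.03 in CMs, a difference of 0.72 ± 0.10 (SE; adjusted p = 0.000811 from edgeR). The effect on *Timp3* was 0.78 in chamber EdCs and -0.15 in CMs, a difference of 0.92 ± 0.15 (SE; adjusted p = 0.00166 from edgeR). The other differences passed with any library left out. Of all genes tested, 0.691% differed between chamber and cushion EdCs and 1.43% between chamber EdCs and CMs. *Gja4*, *Col13a1*, *Egr1*, *Tcf4*, *Pdgfb* and *Timp3* were named by the study on these samples. Red blood cell markers were lower in both *Tie2-cko* libraries of both endocardial types, and their part was not tested.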

How the results depend on the processing

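The count of genes past an adjusted p of 0.05 depended on the setting, and the cause was not tested. DESeq2 called 22 genes in chamber EdCs, 8 in cushion EdCs, 11 in all EdCs, 6 in vascular endothelial-like cells, 2 in CMs, 11 in MCs and 7 in epicardial cells. Without the filter on low counts edgeR called 180, 38, 114, 27 and 24 genes in chamber, cushion and all EdCs, vascular endothelial-like cells and MCs, and 223 and 340 in the differences between chamber EdCs and cushion EdCs or CMs. With libraries 5 and 6 and libraries 7 and 8 as blocks, a pairing that the labels do not give, it called 586, 122, 853, 17, 112, 98 and 30 genes in the order of types first given. The share of cardiac types splits the libraries in the same way, at 47.3% and 37.4% against 75.4% and 78.0%. Whether these pairs are the matched littermates is not stated. Nor is the sex of the embryos behind each library. *Xist* came first among the genes called without the filter in chamber, cushion and all EdCs and in MCs. The part of sex in these counts was not tested. The stricter cell filter gave 2 in cushion EdCs, and no doublet removal gave 1 in cushion EdCs and 1 in epicardial cells. With each library left out in turn, the lone library being assumed to vary like the other group, the counts were 106 to 189 in chamber EdCs, 0 to 50 in cushion EdCs, 2 to 36 in all EdCs, 5 to 67 in vascular endothelial-like cells, 0 to 2 in CMs, 0 to 15 in MCs, 6 to 65 in epicardial cells, 63 to 223 in the difference between chamber and cushion EdCs and 89 to 435 in that between chamber EdCs and CMs. No member but *Esm1* passed in any of these settings. Resolution 0.4 gave no vascular endothelial-like type.

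Log2 fold changes near 0 changed sign in 11 of 412 values over the other settings. *Akt1* in chamber EdCs was at 0.018 without doublet removal and 0.0028 at resolution 0.4. *Foxo3* in cushion EdCs was at -0.0065 with the stricter cell filter, -0.00073 at resolution 0.4 and -0.0034 at 1.2, and *Pik3ca* there at -0.011 without doublet removal and -0.0051 at 1.2. *Foxo1* in vascular endothelial-like cells was at 0.0021 with blocks and 0.021 without doublet removal, *Foxo3* in CMs at 0.0196 with the stricter filter and *Irs2* in epicardial cells at -0.00066 without doublet removal. Thinned to 3000 UMIs, the *Tie2-cko* minus control difference in the share of chamber EdCs turned to 0.706 percentage points for *Foxo1*, -0.199 for *Foxo3*, -2.68 for *Akt1* and -0.124 for *Irs2*. With each library left out, ranges that crossed 0 were as follows. In chamber EdCs they were -0.22 to 0.00405 for *Foxo1*, -0.12 to 0.76 for *Foxo3*, -0.84 to 0.34 for *Foxo4* and -0.38 to 0.30 for *Akt1*. In cushion EdCs they were -0.17 to 0.26 for *Foxo3*, -0.19 to 0.48 for *Akt1* and -0.15 to 0.22 for *Pik3ca*. In vascular endothelial-like cells they were -0.74 to 0.50 for *Foxo1*, -0.23 to 0.34 for *Akt1* and -1.36 to 0.28 for *Esm1*. In CMs they were -0.13 to 0.025 for *Foxo3*, -0.16 to 0.11 for *Foxo4*, -0.13 to 0.44 for *Akt1*, -0.20 to 0.15 for *Pik3ca* and -0.22 to 0.22 for *Pik3r1*. In MCs they were -0.13 to 0.22 for *Foxo1*, -0.38 to 0.11 for *Foxo3*, -0.49 to 0.042 for *Foxo4*, -0.068 to 0.51 for *Akt1* and -0.29 to 0.18 for *Pik3ca*. In epicardial cells they were -0.37 to 0.070 for *Foxo4*, -0.060 to 0.51 for *Akt1*, -0.29 to 0.48 for *Pik3r1*, -0.076 to 0.12 for *Irs2* and -0.27 to 0.0019 for *Tek*. In the difference between chamber and cushion EdCs they were -0.038 to 0.11 for *Foxo1*, -0.28 to 0.88 for *Foxo3*, -0.090 to 0.33 for *Irs2* and -1.20 to 3.92 for *Esm1*. In the difference between chamber EdCs and CMs they were -0.14 to 0.0065 for *Foxo1*, -0.16 to 0.85 for *Foxo3*, -0.71 to 0.25 for *Foxo4* and -0.039 to 0.51 for *Pik3r1*. Levels kept within 1 SD in 145 of 160 values. Those that moved include *Foxo1* with pooled UMIs in place of the mean over cells. It was then at 0.4575 in chamber EdCs, 0.7565 in cushion EdCs and 0.3031 in vascular endothelial-like cells, in the same order of types. The few UMIs of *Foxo3*, *Foxo4*, *Irs2* and *Esm1* in EdCs limit what can be detected.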
